A study of Mus musculus with 6 samples.

Results

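The LIM homeobox factors are transcription factors that join a pair of LIM zinc finger domains to a DNA-binding homeodomain. The genes considered here were 10 listed family members (Lhx1, Lhx2, Lhx5, Lhx6, Lhx8, Lhx9, Lmx1a, Lmx1b, Isl1 and Isl2), each represented by the array probe set with a single gene symbol and the highest mean. Of these 10 genes, 9 had such a probe set among the 19938 genes compared, and Lmx1a was not analysed here. Each of the 9 genes had 1 probe set. Neocortex was dissected from 6 mouse embryos at embryonic day 14.5, and the RNA of each embryo was hybridised to its own Affymetrix Mouse Gene ST array. The 3 mutants were Bcl11aΔflox/Δflox, labelled as knockout, and the 3 controls were Bcl11a+/+ and labelled as wild type. The sources used here do not give the Cre driver, the cells that lost the gene, the strain or any further allele shared by the groups. Bcl11a encodes a zinc finger protein that regulates transcription in projection neurons of the cortex, and the title of the series links it to neuronal migration through the guidance cue Sema3c.

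In the forebrain, LIM homeobox factors mark and specify regions and neuron types. They act in complexes with Ldb proteins, which bind the LIM domains and bring factors together, while the LIM-only Lmo proteins compete for Ldb. Lhx2 is a selector of cortical identity in progenitors, Lhx1 and Lhx5 are expressed in Cajal-Retzius cells, and Lhx6 and Lhx8 act in neurons of the medial ganglionic eminence. Isl1, Isl2, Lmx1a and Lmx1b are best known from the striatum, motor and sensory neurons, the cortical hem, the midbrain and the hindbrain.

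The arrays showed the following background to these genes. Correlations between arrays lay between 0.993 and 0.997. Bcl11a (Entrez 14025) was 1.79-fold lower in mutants, at 11.41, 11.49 and 11.34, against 12.20, 12.30 and 12.26 in controls (limma adjusted p = 0.00201). The position of its probes within or outside the deleted part is unknown here, and probes outside it would check nothing. Defining neocortical genes were bright on every array: the 7 of 9 listed genes that were measured averaged 11.61 to 11.67 in mutants and 11.52 to 11.61 in controls. By Xist and Y-linked genes, 1 mutant and 2 controls were female, and 2 mutants and 1 control were male. Red cell genes were higher in every mutant, with a list mean of 8.93 to 9.07 in mutants and 7.56 to 7.78 in controls over 9 measured genes. All 9 differences were positive. At a limma adjusted p under 0.05, 6 of these genes were higher in mutants, as were 0.246% of all genes. Genes of meninges and pericytes averaged 8.20 in mutant replicate 1, 7.10 and 7.19 in the other mutants and 6.89 to 6.996 in controls. These red cell and meningeal lists were drawn up with earlier results of these data known, and their part in the values that follow was not tested. All levels are log2 values from RMA, and differences are mutant minus control on the log2 scale.

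Upstream sequence is shown for the 3 members with the lowest unadjusted p among those higher in mutants, since Bcl11a is a DNA-binding factor. These 3 were chosen after their values were seen. The human BCL11A protein is known to bind TGACCA in a globin promoter, and these letters were searched on both strands of RefSeq's windows of 250 bases before to 50 after a gene's start (GRCm38.p6). A window was held for 9 of the 10 genes, with 12 windows in all. These are not the 9 measured genes: no window was held for Lhx5, and the unmeasured Lmx1a is included. TGACCA was found in 2 of the 12 windows, against 13.6% of all 32851 windows. The matches were in Lhx1, at chr11:84525485-84525784, and in the window of 1 of the 3 start sites of Lhx6, at chr2:36105359-36105658. Lhx9, at chr1:138842395-138842694, had none. All 3 genes lie on the minus strand, and each sequence runs 5′ to 3′ along the gene's strand, with TGGTCA, the reverse complement of TGACCA, in capitals.
Lhx1: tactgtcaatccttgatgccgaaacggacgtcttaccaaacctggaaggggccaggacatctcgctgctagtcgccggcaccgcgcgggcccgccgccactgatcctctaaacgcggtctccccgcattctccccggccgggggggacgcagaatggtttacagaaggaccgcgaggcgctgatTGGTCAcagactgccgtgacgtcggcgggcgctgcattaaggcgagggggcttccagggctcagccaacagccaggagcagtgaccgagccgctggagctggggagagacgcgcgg
Lhx6: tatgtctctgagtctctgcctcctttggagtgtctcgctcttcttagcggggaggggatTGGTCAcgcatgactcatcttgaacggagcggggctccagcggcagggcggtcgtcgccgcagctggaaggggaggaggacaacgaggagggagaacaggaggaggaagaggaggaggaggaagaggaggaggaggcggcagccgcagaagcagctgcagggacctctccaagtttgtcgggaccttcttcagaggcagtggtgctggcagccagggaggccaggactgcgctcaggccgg
Lhx9: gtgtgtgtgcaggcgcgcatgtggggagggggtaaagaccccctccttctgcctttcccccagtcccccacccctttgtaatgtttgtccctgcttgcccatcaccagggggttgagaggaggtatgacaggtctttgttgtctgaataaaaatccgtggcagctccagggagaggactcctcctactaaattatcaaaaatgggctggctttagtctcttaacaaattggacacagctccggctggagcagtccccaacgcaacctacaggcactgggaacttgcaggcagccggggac
Both matches overlap the reverse complement of CCAAT, a common promoter element. These letters were found on either strand in 37.4% of all windows and in 7 of the 12, and the overlapping form in 1.21% of all windows. The core recognised by many homeodomains, TAATTA, was in none of the 12 windows and in 5.29% of all. A match describes letters in the window and not a bound site.

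None of the 9 measured members passed the threshold of a limma adjusted p under 0.05 over all 19938 genes, where 57 genes, 0.286%, did (0.246% higher and 0.0401% lower in mutants). At an unadjusted limma p under 0.05 there were 4 members, against 6.05% of all genes. This count was 2 without mutant replicate 2, mutant replicate 3 or control replicate 2, and lay between 2 and 5 over the 14 alternatives. Lhx1, Lhx6 and Lhx9 were higher in mutants, against 4.53% of all genes in that direction, and Lhx5 was lower, against 1.52% of all genes. The members' adjusted p lay between 0.425 for Lhx9 and 0.9995. Their median difference was 0.10, against 0.02 over all genes, and 5 of 9 differences were positive, as were 60.3% of all genes. The groups did not overlap for 2 members, Lhx1 and Lhx9, both higher in mutants, against 10.5% of all genes in either direction, 7.69% higher and 2.85% lower. With array weights, which give less weight to arrays that fit poorly, 1 member passed, among 217 genes or 1.09% of all genes in that fit. It was Lhx9, at 0.37 (limma adjusted p = 0.0451, with 0.0451 to 0.985 over its 14 alternatives). The weights ran from 0.45 for control replicate 3, the control nearest to the mutants in Lhx9, to 3.02 for control replicate 2. The differences were small: every 95% interval of a member lay within -0.66 and 0.56.

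**Figure D1:**
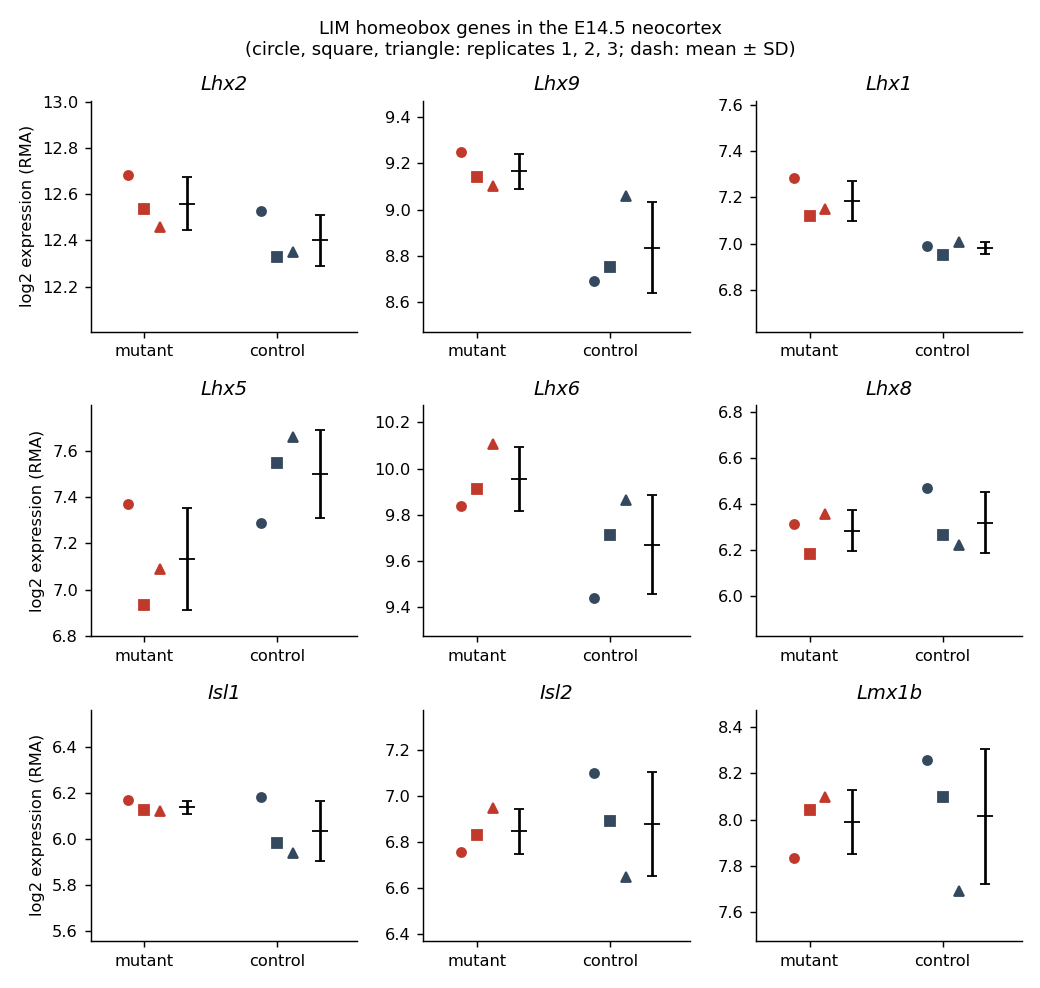
Log2 expression (RMA) of the 9 measured LIM homeobox genes on each array, with mutants left of controls. Circles, squares and triangles are replicates 1, 2 and 3, dashes with bars are the mean ± SD of 3 arrays, and every panel has the same height in log2 units on its own level. The mutant arrays lie wholly above the controls in the panels of Lhx9 and Lhx1, and the groups overlap in the other 7 panels.

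Lhx2 and Lhx9, a pair of paralogs of the cortical primordium and diencephalon, were both higher on average in mutants, and neither passed. Lhx2, which in mouse is needed for cortical identity and keeps hem fate out of the cortical primordium, read 12.68, 12.54 and 12.46 in mutants and 12.53, 12.33 and 12.35 in controls. Mutant replicate 3 lay below control replicate 1, so the groups overlapped. Lhx2 averaged 12.56 ± 0.11 in mutants and 12.40 ± 0.11 in controls (SD, n = 3 each), and the difference of 0.16 ± 0.08 (SE) had a 95% interval from -0.03 to 0.35 (limma adjusted p = 0.938). Its signal was above that of 99.4% of genes on these arrays, as a rank of probe set values that are not comparable as amounts of RNA.

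Lhx9 is expressed in thalamic and early cortical neurons. It read 9.25, 9.14 and 9.10 in mutants and 8.69, 8.75 and 9.06 in controls. Every mutant was above every control, with a gap of 0.04 between the lowest mutant and control replicate 3. The means were 9.17 ± 0.08 in mutants and 8.83 ± 0.20 in controls (SD, n = 3 each), 1.26-fold higher in mutants with an interval of 1.08 to 1.47. The difference was 0.33 ± 0.10 (SE, limma adjusted p = 0.425). Without 1 array at a time it lay between 0.26, without control replicate 1 (limma adjusted p = 0.702), and 0.44, without control replicate 3 (0.0807).

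Genes of cortical progenitors and area patterning stood beside Lhx2. Of 12 listed genes 11 were measured, none passed, 4 differences were positive and the median was 0.00. Dmrt3, a doublesex-related factor of the medial cortical primordium, read 8.996, 8.93 and 8.81 in mutants and 9.40, 9.22 and 9.24 in controls, a difference of -0.38 (limma adjusted p = 0.140). Sp8, a zinc finger factor of area patterning, differed by -0.23 (limma adjusted p = 0.727) and Nr2f2, a nuclear receptor of caudal and ventral telencephalon, by 0.18 (0.9995). Pax6, a core progenitor factor, differed by 0.02, with an interval from -0.16 to 0.19. Of 9 thalamic genes, none passed. Slc17a6, a vesicular glutamate transporter gene, differed by 0.37 (limma adjusted p = 0.126), Lef1, a Wnt effector gene, by 0.24 (0.626), and Calb2, which the Cajal-Retzius list also holds, by -0.68 (0.179). Gbx2, a defining thalamic factor, differed by 0.05, with an interval from -0.14 to 0.23.

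Lhx1 and Lhx5, paralogs expressed in Cajal-Retzius cells, which secrete reelin at the cortical surface, differed in opposite directions, and neither passed. Lhx1 read 7.28, 7.12 and 7.15 in mutants and 6.99, 6.95 and 7.01 in controls. The groups stood apart by 0.12. Lhx1 averaged 7.19 ± 0.09 in mutants and 6.98 ± 0.03 in controls (SD, n = 3 each), a difference of 0.20 ± 0.06 (SE, limma adjusted p = 0.498) or 1.15-fold, with an interval of 1.04 to 1.28. Lhx5, which acts in the medial telencephalon and in Cajal-Retzius cells, read 7.37, 6.93 and 7.09 in mutants and 7.29, 7.55 and 7.66 in controls. The groups overlapped, because mutant replicate 1 lay above control replicate 1. Lhx5 averaged 7.13 ± 0.22 in mutants and 7.50 ± 0.19 in controls (SD, n = 3 each), 1.29-fold lower in mutants. The difference was -0.37 ± 0.13 (SE, limma adjusted p = 0.568). Without 1 array at a time it lay between -0.49, without mutant replicate 1 (limma adjusted p = 0.400), and -0.27, without mutant replicate 2 (0.944). In bulk tissue, fewer cells of a type and less RNA per cell cannot be told apart.

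Lhx5 was set beside the mean of a list of 10 other Cajal-Retzius genes. The list mean was 8.44, 8.31 and 8.32 in mutants and 8.25, 8.48 and 8.66 in controls. In both groups the arrays fell in the same order by Lhx5 and by the list mean: control replicate 1 was the lowest control and mutant replicate 1 the highest mutant in each. This is an order of 3 arrays per group, and the list means of mutant replicates 2 and 3 were nearly equal. The control order was also that of Lhx6, Lhx9 and the mean of the interneuron list below, so it was not particular to this list. Nor was the mutant order, which the mean of all 19938 genes shared, at 7.97, 7.93 and 7.96 in mutant replicates 1, 2 and 3. Lhx1 had the order of the list mean in the mutants but not in the controls, where control replicate 2 was its lowest array. None of the 10 genes passed; 4 differences were positive and the median was -0.05. Calb2, the calretinin gene, read 7.45, 7.19 and 7.14 in mutants and 7.66, 7.87 and 8.28 in controls, a difference of -0.68 (limma adjusted p = 0.179). Ndnf, a secreted neuron-derived factor gene, differed by -0.62 (limma adjusted p = 0.516). Reln, the reelin gene, read 11.03, 10.82 and 10.96 in mutants and 11.08, 11.22 and 11.46 in controls, a difference of -0.32 (limma adjusted p = 0.499). Trp73, a p53 family factor that defines hem-derived Cajal-Retzius cells, differed by 0.00, with an interval from -0.18 to 0.17. Nhlh2, a bHLH factor, differed by 0.31 (limma adjusted p = 0.575). Dkk3, which the cortical hem list below also holds, differed by 0.26 (limma adjusted p = 0.207).

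**Figure D2:**
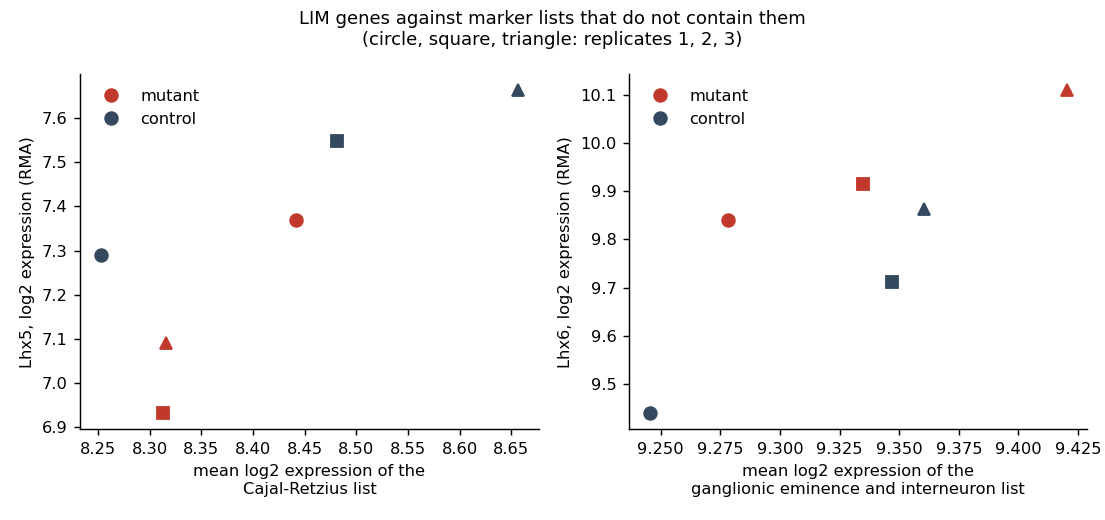
Left, Lhx5 against the mean log2 expression of 10 Cajal-Retzius genes, and right, Lhx6 against the mean of 17 ganglionic eminence and interneuron genes, 1 point per array (circle, square and triangle for replicates 1, 2 and 3). Within mutants and within controls, the arrays with the higher list mean also have the higher value of the LIM gene. Neither list contains the gene it is plotted against. Each of these orders was also that of another list mean or of the mean of all genes.

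The within-array difference of the paralogs was used to ask whether their genotype differences were unequal. Lhx1 minus Lhx5 was -0.09, 0.19 and 0.06 in mutants and -0.30, -0.60 and -0.66 in controls. Every mutant lay above every control. The difference between genotypes was 0.57, with an exact two-sided permutation p of 0.1, the smallest that 3 against 3 arrays can give, and 0.267 after Benjamini-Hochberg adjustment over the 4 pairs tested. Lhx2 minus Lhx9 was 3.39 ± 0.04 in mutants and 3.57 ± 0.27 in controls (SD, n = 3 each; exact permutation p = 0.4, adjusted 0.4). Lhx6 minus Lhx8 was 3.67 ± 0.12 in mutants and 3.35 ± 0.34 in controls (SD, n = 3 each; exact permutation p = 0.2, adjusted 0.267). Isl1 minus Isl2 was -0.71 ± 0.12 in mutants and -0.84 ± 0.12 in controls (SD, n = 3 each; exact permutation p = 0.2, adjusted 0.267). For these 3 pairs the genotypes overlapped.

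**Figure D3:**
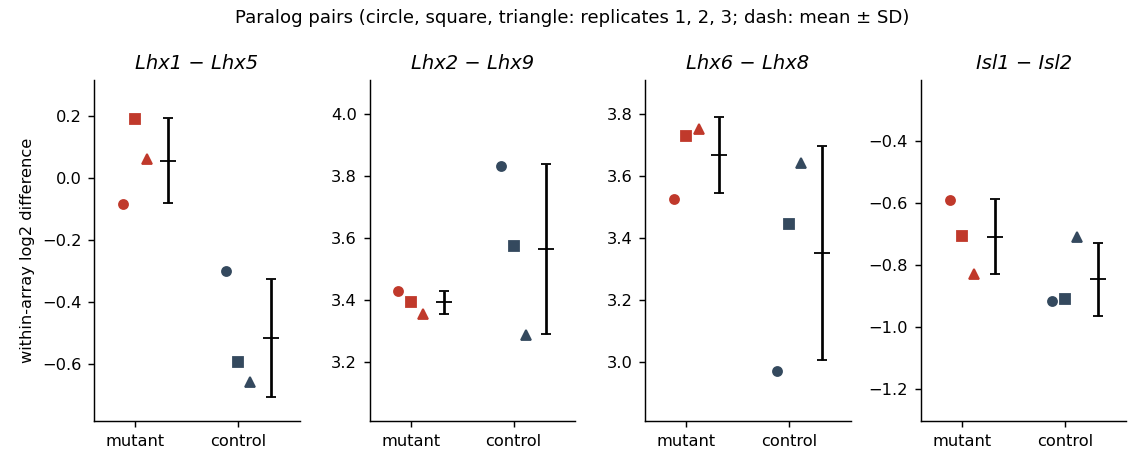
Within-array log2 difference of 4 paralog pairs, mutants left of controls, with replicates 1, 2 and 3 as circles, squares and triangles and the mean ± SD of 3 arrays as dashes with bars. The panels have the same height and different levels, and a level depends on the probe sets as well as on the RNA. Only the first panel, Lhx1 minus Lhx5, shows groups that do not overlap.

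Lhx6 and Lhx8 act in the medial ganglionic eminence, whose interneurons migrate into the cortex. Lhx6, which in mouse guides the migration and fate of cortical interneurons downstream of Nkx2-1, read 9.84, 9.91 and 10.11 in mutants and 9.44, 9.71 and 9.86 in controls. Mutant replicate 1 fell 0.02 below control replicate 3, so the groups just overlapped. The means were 9.95 ± 0.14 in mutants and 9.67 ± 0.21 in controls (SD, n = 3 each), 1.22-fold higher in mutants with an interval of 1.02 to 1.46. The difference was 0.28 ± 0.11 (SE, limma adjusted p = 0.730). Without 1 array at a time it lay between 0.17, without control replicate 1 (limma adjusted p = 0.883), and 0.38, without control replicate 3 (0.372). Lhx8, a factor of forebrain cholinergic neurons, read 6.31, 6.19 and 6.36 in mutants and 6.47, 6.27 and 6.22 in controls. The groups were interleaved and the difference was -0.03, with an interval from -0.22 to 0.15 (limma adjusted p = 0.9995). The Lhx8 signal lay below the 95th percentile of 1015 olfactory receptor genes, 6.40, which served as a guide to the signal of genes not expected in this tissue. RMA compresses differences at such levels.

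Lhx6 was likewise set beside the interneuron list. Of 19 listed genes 17 were measured, and the list mean was 9.28, 9.34 and 9.42 in mutants and 9.25, 9.35 and 9.36 in controls. Within each genotype the 3 arrays had the same order by Lhx6 as by this mean, and Lhx8 had that order in neither genotype. In controls this was also the order of the Cajal-Retzius list mean, so it was not particular to interneuron genes. In mutants it was also the order of Isl2, Lmx1b and the red cell list mean, which was 8.93, 8.995 and 9.07 in replicates 1, 2 and 3. Over the 6 arrays, Pearson's r of Lhx6 was 0.82 with the interneuron mean and 0.88 with the mean of the LIM cofactor genes. None of the 17 passed, 13 differences were positive and the median was 0.08. The general GABAergic genes Dlx1, Dlx2, Gad1 and Gad2 differed by 0.02, 0.08, 0.11 and 0.12. Nkx2-1, which activates Lhx6 in progenitors of the eminence, differed by -0.05, with an interval from -0.21 to 0.11. The peptide genes of interneurons were lower and did not pass. Sst, the somatostatin gene, read 9.18, 9.74 and 9.58 in mutants and 9.98, 10.25 and 9.78 in controls, a difference of -0.50 (limma adjusted p = 0.478). Npy, the neuropeptide Y gene, read 8.17, 8.45 and 8.40 in mutants and 8.60, 9.33 and 8.89 in controls, a difference of -0.60 (limma adjusted p = 0.353). For both peptide genes every mutant lay below every control, as for 2.85% of all genes, and for Ackr3, Cux2 and Maf in the same list every mutant lay above every control, as for 7.69% of all genes. Ackr3, a scavenging chemokine receptor of migrating interneurons that is also made elsewhere, differed by 0.26 (limma adjusted p = 0.409).

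Isl1 and Isl2 had low signals and interleaved genotypes. Isl1, a factor of striatal projection, motor and sensory neurons, read 6.17, 6.12 and 6.12 in mutants and 6.18, 5.98 and 5.94 in controls. Its mean was below the same olfactory receptor percentile, and the difference was 0.10, with an interval from -0.07 to 0.27 (limma adjusted p = 0.9995). Isl2, which is made in motor neurons and in retinal ganglion cells, read 6.76, 6.83 and 6.95 in mutants and 7.10, 6.89 and 6.65 in controls. The controls spanned more than the mutants and enclosed them, and the difference was -0.03, with an interval from -0.29 to 0.22 (limma adjusted p = 0.9995). Among 8 measured of 11 listed motor and sensory neuron genes, none passed, 5 were at or below the olfactory receptor percentile and the median was 0.04. The largest differences were -0.14 for Prph (the peripherin gene), -0.08 for Mnx1 (a motor neuron homeobox gene) and 0.07 for Slc18a3 (the vesicular acetylcholine transporter gene). In the striatal list, 12 of 13 genes were measured and 1 passed: Ebf1, a factor of early striatal neurons. Ebf1 read 8.69, 8.46 and 8.40 in mutants and 7.56, 7.49 and 7.86 in controls (difference 0.88, limma adjusted p = 0.0188). The other striatal genes named by size did not pass, with Penk, the proenkephalin gene, at 0.40 (limma adjusted p = 0.928) and Foxp1, a forkhead factor gene, at -0.20 (0.577). The list median was 0.03.

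Lmx1b, a factor of midbrain dopamine and hindbrain serotonin neurons, read 7.83, 8.04 and 8.10 in mutants and 8.26, 8.10 and 7.69 in controls. Again the mutants lay inside the range of the controls. Lmx1b averaged 7.99 ± 0.14 in mutants and 8.02 ± 0.29 in controls (SD, n = 3 each), and the difference was -0.02, with an interval from -0.34 to 0.29 (limma adjusted p = 0.9995). Of 13 midbrain and hindbrain genes 12 were measured, none passed, 5 were at or below the olfactory receptor percentile and the median was 0.02. Th, the tyrosine hydroxylase gene, read 7.71, 7.26 and 7.12 in mutants and 6.996, 7.05 and 6.54 in controls, a difference of 0.50 (limma adjusted p = 0.566). The differences of the homeobox genes En2 and Msx1 were 0.09 and -0.07. In the cortical hem, the tissue where the unmeasured Lmx1a is expressed, none of 12 genes passed, 9 differences were positive and the median was 0.16. Bmp7, a secreted BMP ligand gene, read 9.01, 7.50 and 7.67 in mutants and 7.59, 7.75 and 7.48 in controls, so that only mutant replicate 1 stood out. Bmp4 was likewise highest in mutant replicate 1, at 7.25, 6.25 and 6.31 in mutants and 6.37, 6.33 and 6.18 in controls. This was also the array with the highest mean of the meninges and pericyte list, and the part of that tissue in the hem values was not tested. Wnt5a, a Wnt ligand gene, differed by 0.35 (limma adjusted p = 0.884), and Wnt3a, a defining ligand of the hem, by -0.02, with an interval from -0.25 to 0.21.

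**Figure D4:**
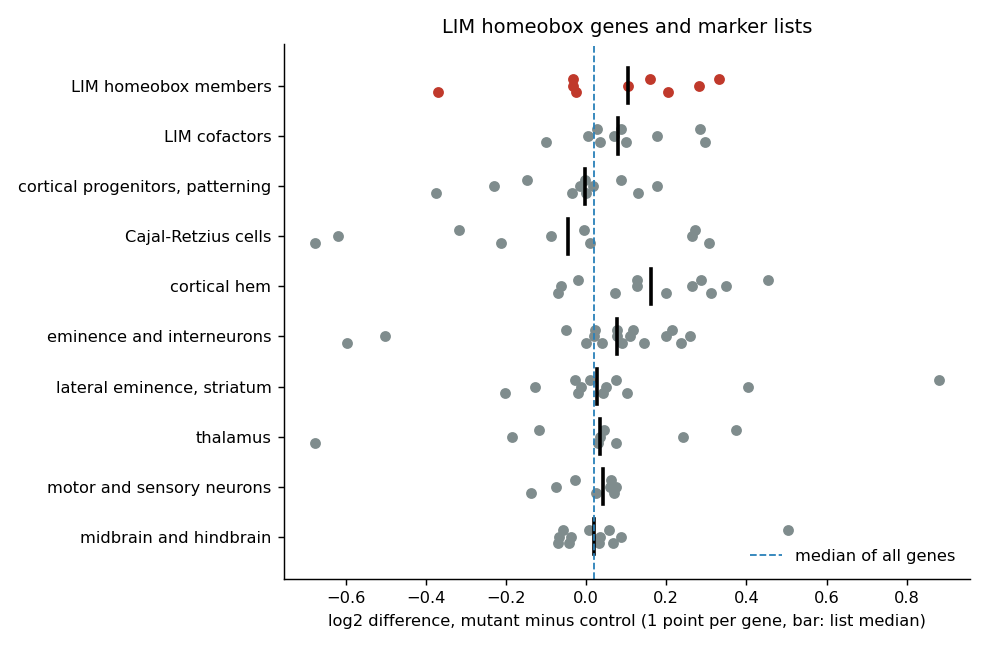
Log2 difference, mutant minus control, of each measured gene in the LIM homeobox group (red) and in 9 comparison lists (grey), 1 point per gene, with the list median as a black bar and the median of all genes as a dashed line. The LIM homeobox genes lie between -0.37 and 0.33, and the rightmost point, Ebf1 at 0.88, is the 1 gene in the plot that passed.

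The remaining family genes and the cofactors did not pass either. Lhx3 and Lhx4, factors of the pituitary and of motor neurons and the paralog pair left out of the list above, differed by -0.03 and 0.02. Of 10 cofactor genes all were measured, 9 differences were positive and the median was 0.08. The adaptors Ldb1 and Ldb2 differed by 0.03 and 0.18, with intervals from -0.10 to 0.15 and from -0.10 to 0.45. Among the LIM-only genes, Lmo4 read 10.68, 10.71 and 10.81 in mutants and 10.38, 10.43 and 10.50 in controls, a difference of 0.30 ± 0.07 (SE, limma adjusted p = 0.177). Lmo2, which is also a gene of blood and endothelial cells, read 9.28, 8.92 and 9.02 in mutants and 8.75, 8.82 and 8.81 in controls, a difference of 0.28 (limma adjusted p = 0.514). For Lmo1, Lmo2 and Lmo4 every mutant was above every control, as for 7.69% of all genes, and for Ssbp2 every mutant was below every control, as for 2.85%. Lmo1 and Lmo3 differed by 0.10 and 0.07. The Ssbp proteins stabilise Ldb, and Ssbp2, Ssbp3 and Ssbp4 differed by -0.10, 0.00 and 0.09. Rlim, whose product marks Ldb proteins for degradation, differed by 0.03.

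**Figure D5:**
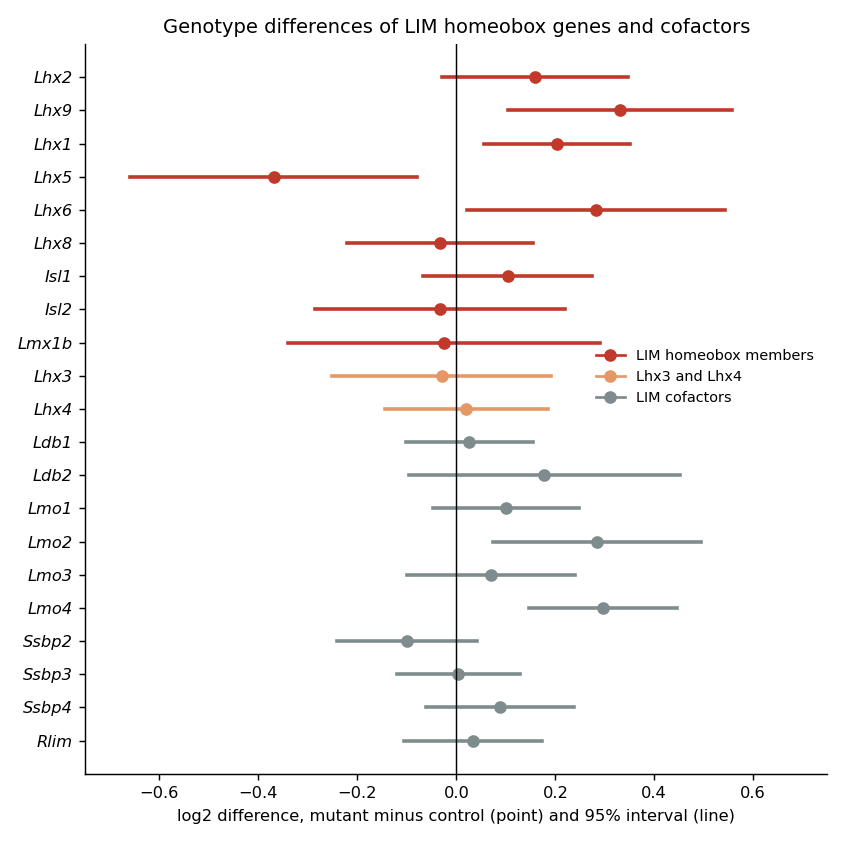
Log2 difference, mutant minus control (points), with its 95% interval from limma (lines) for the 9 measured LIM homeobox members, for Lhx3 and Lhx4, and for 10 LIM cofactor genes. The intervals of Lhx9, Lhx1, Lhx6, Lmo2 and Lmo4 lie above 0 and that of Lhx5 below it, before any adjustment for the number of genes, and none of these genes passed after it.

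The genes whose pattern over the 6 arrays was most like that of the 2 members with the widest range were ranked by Pearson's r. The search covered 1325 genes that varied by at least 0.5. It left out predicted or unnamed genes, small RNA genes, and olfactory and vomeronasal receptor genes. The ranking is a description of 6 points that share arrays and genotypes. For Lhx5, whose range was 0.73, the most alike were Eps8, Necab1 and Sec24d, with r of 0.990, 0.971 and 0.956. For Lhx6, whose range was 0.67, they were Tcp11l2, Gabbr2 and Tmem47, with r of 0.992, 0.988 and 0.980. None of these 6 genes passed the genotype test.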

How the data were processed

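The deposited log2 values were made by the authors with Affymetrix Expression Console and RMA, per the submitters' processing notes, which corrects background, applies quantile normalization and summarises probe sets. The log2 scale was read from the values, which lay between 3.41 and 13.75. The sources used here give no software version and no genome build of the array. Array medians lay between 7.23 and 7.33, and no further scaling was applied. For arrays, their number limits the precision. Quantile normalization would hide a shift of most genes in 1 direction.

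Gene symbols came from an annotation of the platform in GEO, whose names can be outdated, with symbols updated through a RefSeq table of GRCm38.p6 (21698 of 21789 single-symbol probe sets matched). Of 35556 probe sets, 1621 with several symbols and 12146 with none listed were left out. Per gene, the probe set with the highest mean was kept, which gave 19938 genes.

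The comparison of mutants with controls used limma 3.58.1 in R 4.3.3 (lmFit, eBayes, no covariate, two-sided), with Benjamini-Hochberg adjustment over all genes and a threshold of 0.05. Intervals are limma's 95% intervals for single genes. Paralog pairs were compared by exact permutation tests in scipy 1.17.1. The fit was tested on simulated data. The members and gene lists were chosen with earlier results of these data known. Members, remaining LIM genes and cofactors were always named. From other lists, genes past the threshold and up to 3 with the largest differences were named. Further genes, among them defining markers, the GABAergic genes, Nhlh2 and Dkk3, were chosen after their values were seen. The red cell, meningeal and neocortical lists are given as list means. Each embryo's RNA was prepared separately, per the labels' series text.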

Additional observations from a re-analysis of the deposited data

How the results depend on the processing

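The fit was repeated under 14 alternatives. No member passed in 13 of them, and 1 passed with array weights, Lhx9 at 0.37. Of 124 member values under the alternatives, 117 kept their direction. Part of this count was fixed in advance. The fits with a replicate block, with an intensity trend, on all probe sets and without dim genes returned the main difference for every member tested. The 7 that turned came from fits without 1 array and from members near 0, with ranges of -0.082 to 0.041 for Lhx8, -0.19 to 0.097 for Lmx1b and -0.15 to 0.076 for Isl2, and the cause was not tested. Lhx1, Lhx2, Lhx5, Lhx6, Lhx9 and Isl1 kept their sign in every fit run. Their ranges were 0.15 to 0.24, 0.10 to 0.22, -0.49 to -0.27, 0.17 to 0.38, 0.26 to 0.44 and 0.06 to 0.18. No pair difference changed sign, but median centring, 1 of the alternatives run for pairs, cannot alter a within-array difference. The number of genes called was 217 with array weights, 24 with the embryos' sex as a covariate and 20 to 50 without 1 array, where fewer arrays were fitted. Bcl11a passed in all 14. A replicate block, fitted by number, gave 34 genes and no member. Same-numbered arrays deviated together with correlations of 0.03, -0.14 and 0.08, so the numbers were not taken to pair the samples. Without dim genes, Lhx8 and Isl1 were not tested. Lmx1a, and its pair with Lmx1b, were not run because no probe set was named for Lmx1a. RMA signals near the level of olfactory receptor genes limit what can be seen for Isl1 and Lhx8.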

Other observations

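Among the controls, 4 members had the same order of arrays. Isl1, Isl2, Lhx8 and Lmx1b, and also Lhx3 and Lhx4, were each highest in control replicate 1 and lowest in control replicate 3. The mean of 1015 olfactory receptor genes had the same order there, at 5.01, 4.95 and 4.92 in control replicates 1, 2 and 3. In mutants this mean was 4.98, 4.95 and 4.97, and none of these genes had its order there. Lhx1 and Lhx5, whose signals were lower than that of Lmx1b, did not have this order in the controls. In the mutants both did have the order of the olfactory receptor mean, highest in replicate 1 and lowest in replicate 2.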
